A study of Mus musculus with 6 samples.

Results

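The transcripts described here encode 10 mouse transcription factors, namely Batf, Batf3, Irf4, Jun, Junb, Jund, Fos, Fosb, Fosl1 and Fosl2. They were chosen by name, with earlier results of these data known, as BATF and IRF4 with the Jun and Fos proteins of the AP-1 group, and all 10 were found among the 24589 gene symbols of the expression table. The samples were primary CD8+ T cells of WT genotype, lymphocytes that kill infected and tumour cells. Per the study's methods, the cells were isolated with magnetic beads from spleen and lymph nodes of C57BL/6 mice and activated on plate-bound antibodies to CD3 and CD28. Both groups were activated in this way. TVA (trans-vaccenic acid), a fatty acid of ruminant milk and meat, was then added at 20 µM for 24 h in 1 group of 3 libraries. The control group of 3 libraries received DMSO, the solvent, for the same time. The comparison asked which transcripts differ after exposure to TVA. Nothing in the labels says whether the libraries of a group came from separate mice or cultures, so p-values measure only the spread between these samples, which may be technical.

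BATF and BATF3 are basic leucine zipper (bZIP) proteins that lack a transactivation domain and bind DNA as dimers with a JUN protein. FOS proteins also pair with JUN, in the classical AP-1 dimer, so BATF and FOS share partners. In activated T cells, BATF-JUN dimers recruit IRF4, which binds DNA weakly alone, to composite elements that join an AP-1 site and an IRF site. IRF4 rises with the strength of the T cell receptor signal, and BATF and IRF4 are known to be needed for the expansion and effector program of CD8+ T cells. Transcripts, not proteins or DNA binding, were measured here.

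Levels are given in TPM, a measure of transcript abundance that is scaled for transcript length and to the same total in every library and keeps no trace of sequencing depth. The depth is therefore unknown. Differences are fitted log2 changes of TPM + 1, TVA minus DMSO, tested with limma over 10866 genes, and a change counts as called at a Benjamini-Hochberg adjusted p under 0.05. DMSO replicate 2 stood apart from the other DMSO libraries on the first principal component of all genes tested, at 1.23 against -18.2 and -12.8, with the TVA libraries between 8.80 and 10.8. Values without that library are therefore given where results rest on it. All 5 CD8 T cell markers found in the table were at or above 1 TPM in at least 3 libraries, with sums of 1516 to 1638 TPM in DMSO and 1756 to 1787 TPM in TVA. In bulk samples, fewer cells of a type and less RNA per cell cannot be told apart.

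Batf and Batf3 were lower with TVA, while no difference in Irf4 was found. Once the trend of each library with GC content was subtracted, the log2 change of Batf3 was -0.05 (limma adjusted p = 0.71). Without that step, Batf and Batf3 were the 2 of the 10 factors called, both lower. Of all genes tested, 3.23% were called lower and 8.51% in either direction. The TPM of 7 of the 10 factors were lower in every TVA library than in any DMSO library, against 11.2% of all genes tested that were lower and 38.6% that did not overlap in either direction. The median log2 change of the 10 was -0.23, beside 0.04 for all genes tested. Since the members were picked with results known, these counts are a description.

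Batf stood at 73.1, 70.4 and 64.3 TPM in the DMSO libraries and at 55.4, 59.9 and 54.4 TPM in the TVA libraries. The groups did not overlap, and the mean fell by 18.3%, from 69.3 ± 4.53 to 56.6 ± 2.95 TPM (SD, n = 3 each). The log2 change was -0.29 (SE 0.060, 95% interval -0.42 to -0.15, limma adjusted p = 0.033). The study itself reported Batf as lower with TVA, and its text does not say whether on these samples. The direction of Batf here is therefore not independent evidence. The call was lost without any 1 of TVA replicates 1, 2 and 3, with limma adjusted p of 0.11, 0.088 and 0.14. It was also lost with all genes above 0 TPM tested (limma adjusted p = 0.063) and with replicate number as a block (limma adjusted p = 0.051).

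Batf3, the close relative that is best known from cross-presenting dendritic cells and is also induced in activated T cells, was measured at 25.5, 23.6 and 25.0 TPM with DMSO. With TVA it stood at 20.0, 22.0 and 19.4 TPM, all below the lowest DMSO library. Its fitted difference was -0.26 on the log2 scale (SE 0.058, limma adjusted p = 0.038), from 24.7 ± 1.01 to 20.5 ± 1.34 TPM (SD, n = 3 each). Batf3 transcripts are rich in GC, at 61.4%, the 98.1 percentile of the genes tested. When the trend of each library with GC content was subtracted, the log2 change of Batf3 was -0.05 (limma adjusted p = 0.71) and that of Batf, at 55.7% GC, was -0.25 (limma adjusted p = 0.018). The part of GC content in the Batf3 difference was not tested further. Its call was also lost without any 1 of the 5 libraries other than DMSO replicate 2, with limma adjusted p up to 0.16.

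Batf3 and Irf4 are also expressed by other blood cells, so the markers of those cells are given beside them. Of 6 dendritic cell markers, 1 (Zbtb46, at 5.08 to 6.10 TPM) passed the filter of at least 1 TPM in at least 3 libraries, and Clec9a stood at 0.01 to 0.08 TPM. The dendritic markers summed to 7.47 to 7.69 TPM in DMSO and 6.63 to 7.31 TPM in TVA, lower without overlap. Of 6 B cell markers, 1 passed the filter, Cd79b. The sums were 11.3 to 14.9 TPM in DMSO and 10.7 to 11.1 TPM in TVA, also lower without overlap. The 4 plasma cell markers summed to 81.3 to 89.3 and 81.9 to 88.1 TPM, most of it Xbp1, a secretory stress factor that activated T cells also express. No marker of these lists was at 0 in all libraries. The 3 CD4 T cell markers summed to 9.97 to 11.6 and 8.72 to 10.4 TPM, and the 5 red cell markers to 37.7 to 61.3 and 48.6 to 58.7 TPM. The 6 monocyte and macrophage markers summed higher with TVA, at 40.7 to 44.4 TPM in DMSO and 54.2 to 55.8 TPM in TVA. Most of these sums was Lyz2, at 28.9 to 31.0 and 38.0 to 41.3 TPM, while Cd68 overlapped between the groups. The NK cell list also summed higher, at 21.5 to 24.2 and 32.8 to 33.1 TPM, most of it Eomes, which CD8+ T cells also express. The part of these cell types in the results was not tested.

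Irf4 was among the most abundant of the 10 transcripts, at 296, 311 and 291 TPM in the DMSO libraries and 305, 318 and 315 TPM in the TVA libraries. The groups overlapped, and the log2 change was 0.06 (95% interval -0.03 to 0.16, limma adjusted p = 0.31). Within each library, Irf4 stood higher relative to Batf in TVA. The ratio of Irf4 TPM to Batf TPM was 4.05, 4.42 and 4.52 in the DMSO libraries and 5.51, 5.31 and 5.79 in the TVA libraries, and the groups did not overlap. The ratio of Batf to Batf3 overlapped between the groups, at 2.58 to 2.99 with DMSO and 2.73 to 2.80 with TVA.

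**Figure D1:**
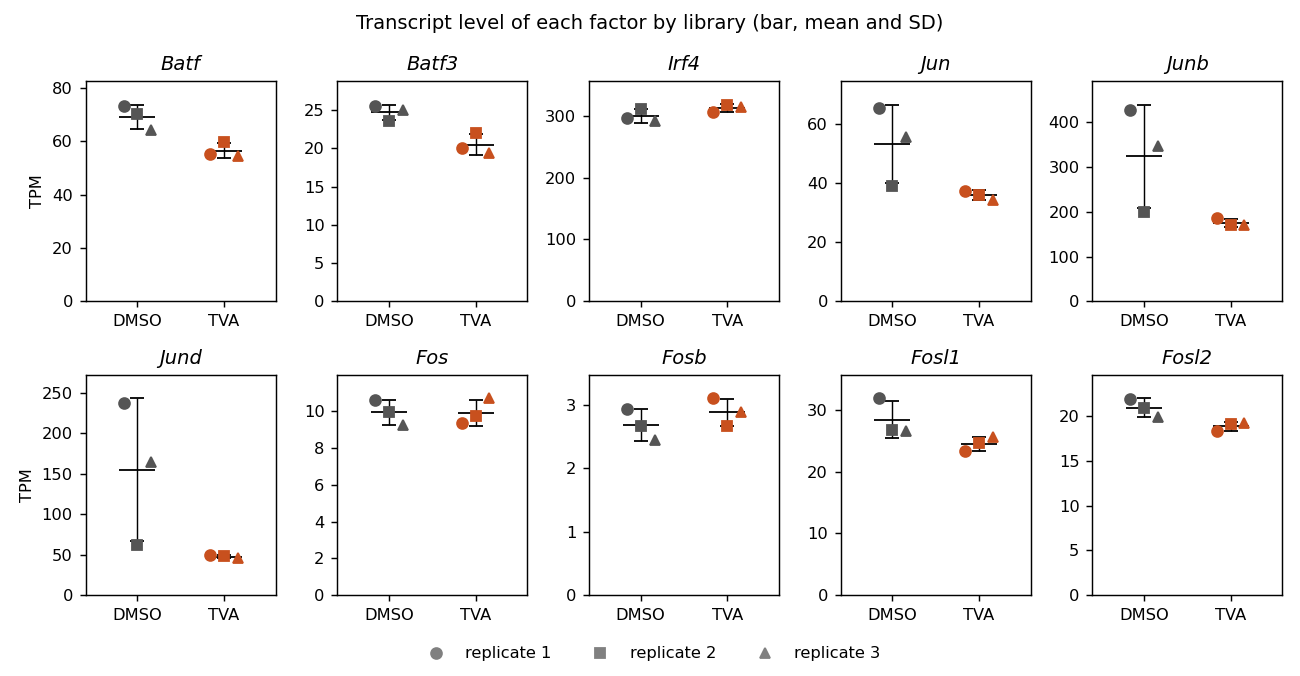
TPM of each of the 10 factors (vertical axes from 0, separate scales) in the 3 DMSO and 3 TVA libraries, with symbols for the replicate number and bars for the mean and SD. Batf and Batf3 were lower in all 3 TVA libraries, Irf4 overlapped between 291 and 318 TPM, and DMSO replicate 2 lay near the TVA libraries for Jun, Junb and Jund.

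The Jun genes encode the obligate partners of the BATF and FOS proteins. Each of the 3 was lower in every TVA library than in any DMSO library, but none was called, and the DMSO libraries differed widely from each other. Junb, often the most abundant JUN protein of activated T cells, stood at 426, 199 and 346 TPM in DMSO and at 186, 170 and 170 TPM in TVA. The log2 change was -0.81 (SE 0.24, limma adjusted p = 0.071), from a mean of 323.5 ± 115.5 to 175 ± 9.12 TPM (SD, n = 3 each).

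Jund, a member that is also expressed in resting cells, was measured at 238, 61.7 and 165 TPM in DMSO and at 49.4, 48.0 and 45.4 TPM in TVA. The log2 change was -1.48 (SE 0.42, 95% interval -2.45 to -0.51, limma adjusted p = 0.064), the furthest from 0 of the 10 factors. Jun, the founding member and an immediate early gene, stood at 65.4, 39.2 and 55.7 TPM in DMSO and at 37.6, 36.1 and 34.2 TPM in TVA (log2 change -0.53, SE 0.16, limma adjusted p = 0.075). The spread within a group was unequal for these genes: the coefficient of variation of Jund was 57.1% in DMSO and 4.24% in TVA, that of Junb 35.7% and 5.21%, and that of Jun 24.8% and 4.69%.

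All 3 controls differed from each other in the Jun genes, with DMSO replicate 2 lowest and DMSO replicate 1 highest. DMSO replicate 1 was 3.85-fold above DMSO replicate 2 for Jund, 2.15-fold for Junb and 1.67-fold for Jun. In absolute size these log2 differences ranked at the 99.9, 99.4 and 98.5 percentiles of the genes tested. DMSO replicates 1 and 3 differed by 0.52 on the log2 scale for Jund, 0.30 for Junb and 0.23 for Jun, beside a median signed difference of 0.05 over all genes tested. DMSO replicate 2 exceeded the TVA mean by 0.37 on the log2 scale for Jund, 0.18 for Junb and 0.12 for Jun, while the largest gap between any 2 TVA libraries was 0.12 to 0.13. Without DMSO replicate 2, all 3 were called lower: Jund at a log2 change of -2.03, Junb at -1.13 and Jun at -0.73, with limma adjusted p of 1.3e-04, 2.3e-04 and 9.1e-04. In that fit 5 of the 10 factors were called, each of them lower, where 9.38% of all genes tested were. The library left out there is the control nearest the TVA libraries, so its omission widens the difference. Without DMSO replicate 1, Jund, Junb and Jun stood at -1.07, -0.58 and -0.37, not called (limma adjusted p of 0.087, 0.10 and 0.10). Nor were they called without DMSO replicate 3 or without any 1 TVA replicate (limma adjusted p of 0.16 to 0.22).

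**Figure D2:**
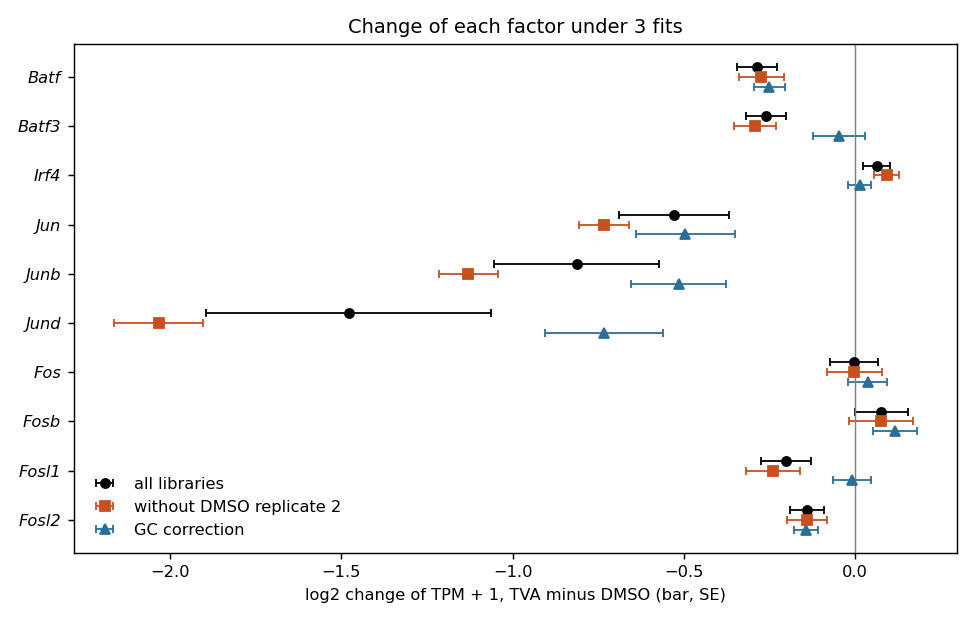
Fitted log2 change of TPM + 1 (TVA minus DMSO, horizontal axis, bars show the SE) for each factor in 3 fits, namely with all libraries, after omission of DMSO replicate 2, and with the GC correction. For Jund the values were -1.48, -2.03 and -0.73, while Batf lay between -0.29 and -0.25 in all 3 fits.

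The Jun genes share features that the choice by name did not use. Each is a single-exon gene in the GENCODE vM21 annotation of mm10, the only such genes among the 10. Jund spans chr8:70698949-70700616 (plus strand), Junb chr8:84974484-84978718 (minus strand) and Jun chr4:95049034-95052222 (minus strand). Jund transcripts hold 67.1% GC, the 99.9 percentile of the genes tested, and Junb transcripts 62.7%, the 99.0 percentile. Jun transcripts hold 55.5%, the 78.0 percentile. The difference between DMSO replicates 1 and 2 was 0.72 on the log2 scale for Jun and 0.05 for Batf, at 55.7% GC.

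Over all genes tested, both the difference between DMSO replicates and that between groups moved with GC content. In the 36 genes with 65% GC or more, which include Jund, the median difference between DMSO replicates 1 and 2 was 0.99 on the log2 scale and the median change with TVA was -0.65. In the 389 genes between 60% and 65% GC, which include Junb, Batf3 and Fosl1, the medians were 0.32 and -0.16. In the 2241 genes between 55% and 60%, which include Jun and Batf, they were 0.15 and -0.04. After the GC correction, Jund stood at -0.73 (limma adjusted p = 0.040), Junb at -0.52 (limma adjusted p = 0.057) and Jun at -0.50 (limma adjusted p = 0.070). The correction at the GC content of Jund rests on few genes. With the correction and without DMSO replicate 2, a combination chosen after seeing the data, the 3 were -0.94, -0.70 and -0.68, with limma adjusted p of 7.1e-04, 1.2e-04 and 1.6e-04, and 5 of the 10 factors were called lower, where 12.0% of all genes tested were. The part of GC content in these differences was not tested beyond these fits.

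**Figure D3:**
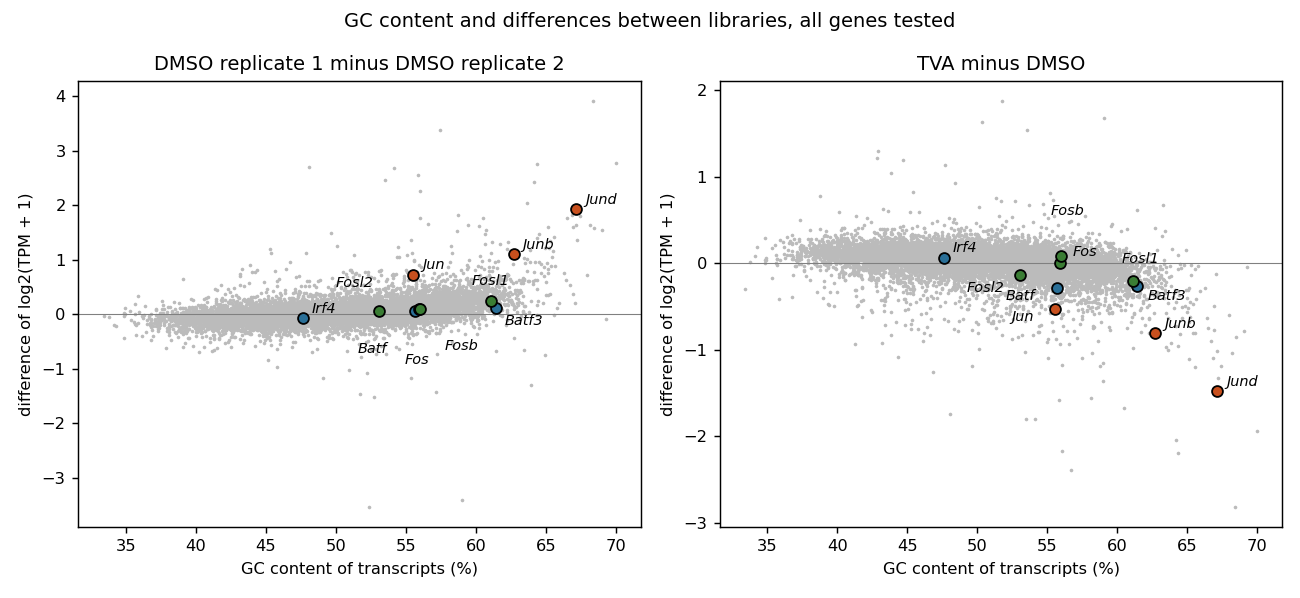
Difference of log2(TPM + 1) (vertical axis) against the GC content of a gene's transcripts in percent (horizontal axis) for all genes tested with a GC value (gray) and the 10 factors, between DMSO replicates 1 and 2 on the left and between TVA and DMSO on the right. Jund and Junb lie at the GC-rich end, where gray points also depart from 0, and Jun lies at 55.5% GC with a difference of 0.72 between the DMSO replicates.

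Reads of overlapping genes are a limit for some of these loci, since the counting by strand is not given in the sources used here. Junb overlaps Prdx2 on the opposite strand, which stood at 157 to 180 TPM in DMSO and 185 to 187 TPM in TVA, in the opposite order to Junb. Jun overlaps the antisense gene Junos, and Jund the antisense gene Gm11175. Fosl1 overlaps Ccdc85b, at 8.89, 3.18 and 6.30 TPM in DMSO and 3.42 to 3.59 TPM in TVA.

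The promoters of the Jun genes, whose log2 changes were the furthest from 0, and of Batf are shown, since JUN and BATF proteins bind AP-1 and CRE elements. The sequences are the 250 bases before the RefSeq start (GRCm38.p6), in the direction of transcription, and Batf is shown only up to the start of its GENCODE gene. RefSeq promoters were found for 9 of the 10 factors. Capitals mark a match to TGANNTCA or, for Junb and Batf, to TGACG, on either strand. Jun lies at chr4:95052223-95052472 (minus strand), Junb at chr8:84978749-84978998 (minus strand), Jund at chr8:70697489-70697738 (plus strand) and Batf at chr12:85686470-85686668 (plus strand).
Jun: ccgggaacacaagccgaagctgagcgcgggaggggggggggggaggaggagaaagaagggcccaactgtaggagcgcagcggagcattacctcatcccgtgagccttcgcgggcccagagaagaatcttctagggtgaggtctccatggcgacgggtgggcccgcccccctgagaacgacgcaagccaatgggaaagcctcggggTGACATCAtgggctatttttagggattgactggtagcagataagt
Junb: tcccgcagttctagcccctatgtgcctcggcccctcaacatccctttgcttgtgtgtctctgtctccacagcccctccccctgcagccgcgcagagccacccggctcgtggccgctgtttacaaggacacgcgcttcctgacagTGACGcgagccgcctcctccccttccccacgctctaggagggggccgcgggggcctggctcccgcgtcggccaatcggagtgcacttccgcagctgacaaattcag
Jund: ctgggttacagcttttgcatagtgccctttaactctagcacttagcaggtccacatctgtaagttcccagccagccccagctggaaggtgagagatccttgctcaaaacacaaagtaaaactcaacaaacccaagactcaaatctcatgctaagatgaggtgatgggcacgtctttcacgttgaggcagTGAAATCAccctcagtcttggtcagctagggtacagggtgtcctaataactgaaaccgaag
Batf: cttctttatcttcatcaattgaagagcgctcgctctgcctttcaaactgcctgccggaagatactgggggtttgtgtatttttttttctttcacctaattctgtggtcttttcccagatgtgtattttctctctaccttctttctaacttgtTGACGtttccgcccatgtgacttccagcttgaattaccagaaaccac
The RefSeq start of Jund lies 1210 bases upstream of the start of its GENCODE gene given above, so the Jund window does not adjoin that gene, while the RefSeq start of Junb lies 30 bases upstream and that of Jun at the same base. The Jun match TGACATCA begins 45 bases before the RefSeq start and the Jund match TGAAATCA 61 bases before it. Of the 9 promoters, 6 held TGANNTCA or TGACG, among them those of Fos and Fosb, for which no difference was found, while those of Batf3, Fosl2 and Irf4 held neither. TGANNTCA occurs in 11.9% and TGACG in 17.8% of the 32851 RefSeq promoters of this length. Any TGACGTCA holds both of these motifs. None of the 9 promoters held TGANTCA or TGACGTCA, which occur in 6.75% and 1.55% of all promoters. A match is a description of the letters and not a binding site.

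The Fos genes divided into Fos and Fosb, for which no difference was found, and Fosl1 and Fosl2, which were lower in every TVA library without being called. Fos, an immediate early gene that is induced and lost within hours of a stimulus, stood at 10.6, 9.93 and 9.24 TPM in DMSO and 9.33, 9.72 and 10.7 TPM in TVA. The groups overlapped, and the interval of its log2 change ran from -0.16 to 0.16 (limma adjusted p = 0.98). Fosb was the lowest of the 10, at 2.94, 2.67 and 2.44 TPM in DMSO and 3.10, 2.67 and 2.88 TPM in TVA (95% interval of the log2 change -0.11 to 0.26, limma adjusted p = 0.52).

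Fosl1 and Fosl2 encode FRA1 and FRA2, the FOS-related proteins that persist longer after activation. Fosl1 was measured at 31.8, 26.8 and 26.6 TPM in DMSO and at 23.3, 24.6 and 25.5 TPM in TVA (log2 change -0.20, SE 0.074, limma adjusted p = 0.11). With 61.1% GC, it is among the GC-rich members, and after the GC correction the log2 change was -0.0087 (limma adjusted p = 0.93). Fosl2 stood at 22.0, 21.0 and 19.9 TPM in DMSO and at 18.3, 19.1 and 19.2 TPM in TVA (log2 change -0.14, SE 0.050, limma adjusted p = 0.11). At 53.1% GC, it was -0.14 after the correction, and there it was called (limma adjusted p = 0.045), with Batf and Jund. Those 3 of 10 compare with 4.91% of all genes called lower in that fit. Fosl2 was also called under median-of-ratios scaling (limma adjusted p = 0.046).

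Fos and Batf are neighbours on chromosome 12, 209395 bases apart, with Jdp2, a bZIP protein that represses AP-1 targets, between them. Over this stretch only Batf was called, while Fos and Jdp2 overlapped between the groups. Jdp2 stood at 2.60 to 3.47 TPM in DMSO and 2.96 to 3.85 TPM in TVA.

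TPM is scaled for length, but the trend with GC content remains in it, which limits any comparison of levels between genes. The orders, sums and shares below were not corrected for GC content. In DMSO the order of the mean levels was Junb, Irf4, Jund, Batf, Jun, Fosl1, Batf3, Fosl2, Fos and Fosb, and the ranges of Junb and Irf4, of Jund and Batf, and of Batf and Jun overlapped. In TVA the order was Irf4, Junb, Batf, Jund, Jun, Fosl1, Batf3, Fosl2, Fos and Fosb, with no overlap between neighbours. The exchange of places concerned Junb with Irf4 and Jund with Batf, and in DMSO replicate 2 alone Irf4 (311 TPM) was also above Junb (199 TPM) and Batf (70.4 TPM) above Jund (61.7 TPM).

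Summed by family, the Jun genes gave 729, 299.5 and 566 TPM in DMSO and 273, 254.5 and 249 TPM in TVA. The Fos genes gave 67.4, 60.4 and 58.1 TPM in DMSO and 54.1, 56.1 and 58.3 TPM in TVA, which overlap. Batf and Batf3 together gave 98.6, 94.0 and 89.2 TPM in DMSO and 75.4, 81.9 and 73.8 TPM in TVA, without overlap. The summed TPM of the Jun genes was thus above that of Batf and Batf3 in every library. Jun family TPM per TPM of Batf and Batf3 was 7.40, 3.19 and 6.35 in DMSO and 3.62, 3.11 and 3.38 in TVA, and DMSO replicate 2 lay within the TVA range. Jund made up 32.6%, 20.6% and 29.1% of the Jun family TPM in DMSO and 18.1%, 18.9% and 18.2% in TVA. Fosl1 and Fosl2 made up 79.1% to 79.9% of the Fos family TPM in DMSO and 76.7% to 77.9% in TVA.

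**Figure D4:**
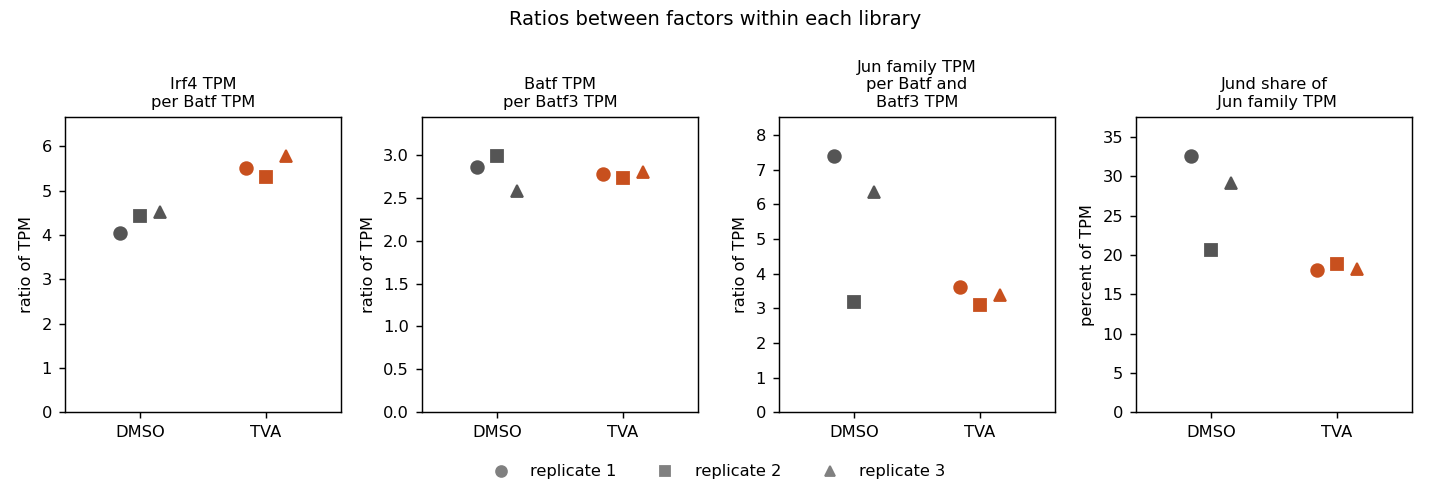
Ratios of TPM between factors, and the share of Jund in the Jun family in percent, in each library (vertical axes from 0; symbols show the replicate number). Irf4 per Batf was 4.05 to 4.52 in DMSO and 5.31 to 5.79 in TVA, whereas Batf per Batf3 overlapped and the Jun family ratio of DMSO replicate 2, 3.19, lay among the TVA libraries.

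Other bZIP proteins pair with or compete against these factors. Of 16 such genes listed, 15 were tested and 2 were called, both lower, where 3.23% of all genes tested were. The median log2 change was -0.07, beside 0.04 for all genes. Atf3, a stress-induced partner of JUN, fell from 93.9 ± 2.84 to 78.4 ± 0.304 TPM (SD, n = 3 each, log2 change -0.26, SE 0.037, limma adjusted p = 0.012), and its call was lost without each TVA replicate in turn (limma adjusted p of 0.064, 0.081 and 0.080). Maff, a small MAF protein without a transactivation domain, fell from 11.2 ± 0.620 to 7.34 ± 0.061 TPM (SD, n = 3 each, log2 change -0.55, SE 0.054, limma adjusted p = 0.0031). Cebpb, named after its values were seen, had the pattern of Jund and the same GC content, 67.1%. It stood at 20.1, 5.78 and 10.2 TPM in DMSO and at 4.98, 4.83 and 4.50 TPM in TVA (limma adjusted p = 0.097). Without DMSO replicate 2, Cebpb was called lower (limma adjusted p = 0.0063), where 9.38% of all genes tested were. Unlike Jund, it was not called after the GC correction (limma adjusted p = 0.29).

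Of 10 genes of the IRF family and its ETS partners, all were tested, 1 was called higher and 1 lower, where 5.28% and 3.23% of all genes tested were. The median log2 change was 0.0046. Irf2, known as a repressor that competes at IRF sites, rose from 34.5 ± 0.743 to 39.8 ± 0.517 TPM (SD, n = 3 each, log2 change 0.20, SE 0.038, limma adjusted p = 0.025). Spib, an ETS partner of IRF4 best known from B cells and plasmacytoid dendritic cells, fell from 7.09 ± 0.327 to 4.38 ± 0.563 TPM (SD, n = 3 each, log2 change -0.59, SE 0.083, limma adjusted p = 0.011). Spib transcripts hold 61.2% GC, and the call was lost after the GC correction (limma adjusted p = 0.092) and without TVA replicate 1 or 2 (limma adjusted p of 0.062 and 0.054). The call of Irf2 was lost without DMSO replicate 3 (limma adjusted p = 0.062) and without TVA replicates 1, 2 or 3 (limma adjusted p of 0.096, 0.14 and 0.11). After the GC correction Irf2 and Irf8, the latter named after its values were seen, were called higher, where 5.43% of all genes tested were. Irf8 stood at 239 ± 25.2 and 259 ± 3.27 TPM (SD, n = 3 each, limma adjusted p = 0.0082 in that fit and 0.018 without DMSO replicate 1).

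Kinases, ternary complex factors, ubiquitin ligases and RNA-binding proteins set the level and activity of AP-1. Of 23 such genes, all tested, 0 were called with limma, where 8.51% of all genes tested were. An unadjusted p under 0.05 was found for 8 of them, and for 31.8% of all genes tested. The median log2 change was -0.01. After the GC correction 2 were called, named after their values were seen, Mapk14 (p38 alpha, higher, 48.3 ± 2.10 and 53.4 ± 1.08 TPM, SD, n = 3 each, limma adjusted p = 0.038) and Rps6ka1 (the kinase RSK1, lower, 87.1 ± 9.79 and 74.8 ± 0.807 TPM, limma adjusted p = 0.043). In that fit 5.43% of all genes tested were called higher and 4.91% lower. Without DMSO replicate 2, 4 were called, all lower, where 9.38% of all genes tested were. They were Map2k1, Map2k2, Zfp36l1 and Zfp36l2, named after their values were seen (limma adjusted p of 0.0012 to 0.029).

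Of 23 genes known as targets of BATF, IRF4 or AP-1 in T cells, 20 were tested, 8 were called lower and 2 higher, against 3.23% and 5.28% of all genes, and the median log2 change was -0.13. Some of these genes were chosen knowing how they moved, so the count is a description. Il13, a type 2 cytokine, fell from 32.8 ± 2.18 to 15.6 ± 1.00 TPM (SD, n = 3 each, limma adjusted p = 5.0e-04). Havcr2, the inhibitory receptor TIM-3, fell from 5.24 ± 0.250 to 2.69 ± 0.375 TPM (SD, n = 3 each, log2 change -0.76, SE 0.085, limma adjusted p = 0.0046). Il2, whose promoter is the textbook AP-1 and NFAT target, fell from 505 ± 10.2 to 360.2 ± 2.63 TPM (SD, n = 3 each, limma adjusted p = 7.2e-04), and Lag3, an inhibitory receptor, from 139.6 ± 12.0 to 101.6 ± 0.930 TPM (SD, n = 3 each, limma adjusted p = 0.0089). The study itself reported Lag3 as lower with TVA, so its direction here is not independent evidence.

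The 2 target genes that rose were Tnfrsf9 and Hif1a. Tnfrsf9, the costimulatory receptor 4-1BB, rose from 322.5 ± 15.0 to 406 ± 5.45 TPM (SD, n = 3 each, log2 change 0.33, SE 0.043, limma adjusted p = 0.0078). Hif1a, the oxygen-regulated factor that drives glycolysis, rose from 95.6 ± 1.37 to 115.5 ± 4.17 TPM (SD, n = 3 each, log2 change 0.27, SE 0.040, limma adjusted p = 0.013). The other 4 called, Il4, Ctla4, Il3 and Slc2a1, named after their values were seen, were lower with limma adjusted p of 0.016 to 0.035. Il13, Il2 and Havcr2 were called whichever single library was left out. Tnfrsf9 was lost without TVA replicate 2 or 3 (limma adjusted p of 0.062 and 0.054), Hif1a without TVA replicate 2 or 3 (0.086 each) and Lag3 without TVA replicates 1, 2 or 3 (0.057, 0.054 and 0.052). Il4, Ctla4, Il3 and Slc2a1 were each lost without DMSO replicate 3 (limma adjusted p of 0.053 to 0.068) and without TVA replicate 2 or 3 (0.080 to 0.15), and Ctla4 and Slc2a1 also without TVA replicate 1 (0.057 and 0.10).

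**Figure D5:**
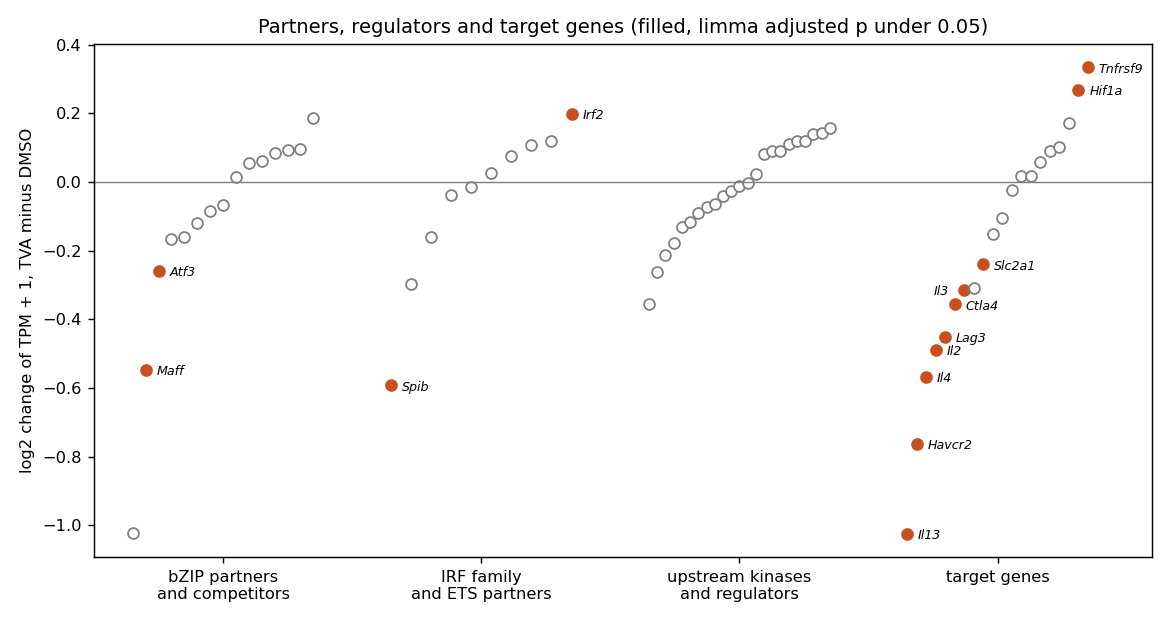
Fitted log2 change of TPM + 1 (TVA minus DMSO, vertical axis) of each gene tested in the 4 lists, ordered by size within a list, with filled points for a limma adjusted p under 0.05. The target genes held 10 filled points, from Il13 at -1.03 to Tnfrsf9 at 0.33, and the upstream kinases and regulators held 0.

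Among the 7561 tested genes whose mean reached 10 TPM, those whose pattern over the 6 libraries lay closest to that of Batf were Wdr59, Nek6 and Dusp10, a phosphatase of the JNK and p38 kinases. Likeness was measured as the root mean square difference of log2(TPM + 1) after centring each gene, which was 0.033, 0.040 and 0.041. Dusp10 stood at 34.3, 34.3 and 32.6 TPM in DMSO and 27.1, 28.5 and 27.4 TPM in TVA. For Irf4 the closest were Hbp1, Mia2 and Dse, at 0.0077, 0.0079 and 0.012. These genes were picked by their likeness, so their own differences between the groups are not a separate result.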

How the data were processed

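RNA-seq libraries (SMARTER mRNA-Seq kit per the labels) were made from CD8+ T cells, 3 with DMSO and 3 with TVA. The authors deposited 1 table of TPM per gene symbol. The submitters' processing notes name STAR, RSEM and mm10, with no version. The annotation is not given in the sources used here. Depth cannot be recovered from TPM, so no counting interval is given.

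TPM was tested as log2(TPM + 1), which understates changes of low genes, in limma 3.58.1 (R 4.3.3, variance trend, two-sided, Benjamini-Hochberg adjustment over 10866 genes with at least 1 TPM in 3 libraries). GC correction subtracted a loess curve (span 0.5) on transcript GC content (GENCODE vM21, 97.4% of genes) in each library. The fit was tested on simulated data. Members and gene lists were chosen with earlier results of these data known. By plan, all members were named, with at most 6 called genes per list and the 3 genes most like Batf and Irf4. List genes named for their values beyond this plan are marked as named after those values were seen. Alternatives were other pseudocounts, filters and scalings, no variance trend, a replicate block, a 1.5-fold minimum, GC correction and omission of each library. GC correction without DMSO replicate 2 was added after seeing the data. Figures used matplotlib 3.10.9.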

Additional observations from a re-analysis of the deposited data

How the results depend on the processing

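With limma, 2 of the 10 factors were called. None was with all genes above 0 TPM, with the replicate block or at 1.5-fold or more (0 each). In these fits 7 of 10 had an unadjusted p under 0.05, beside 31.8% of all genes tested in the main fit. After GC correction without DMSO replicate 2, 5 were called, all lower, where 12.0% of all genes tested were. Omission of single libraries gave 0 to 5 factors, 1 to 6 bZIP partners, 0 to 4 IRF family genes, 0 to 4 upstream genes and 3 to 13 targets, with most calls without DMSO replicate 2. Without that library 9.38% of all genes tested were called lower, beside 3.23% with all libraries. The shares under the other omissions are not given here. A mean of at least 10 TPM left 1 bZIP partner and 1 IRF family gene, since fewer genes were tested. The 1.5-fold minimum left 0 bZIP partners, 1 IRF family gene and 2 targets. GC correction gave 2 upstream genes. The replicate block left 1 IRF family gene and 6 targets, and Batf and Batf3 at limma adjusted p of 0.051 and 0.078. Same-numbered libraries had deviations correlated at 0.16, 0.035 and -0.077, and only DMSO replicate 1 correlated best with its own number. With 3 libraries a group, these values cannot decide whether samples of equal number were paired, and the labels do not say. The cause of the changes between fits was not tested.

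Fos, at -0.0026, turned to 0.037 after GC correction, to 0.055 after GC correction without DMSO replicate 2, and to 0.043, 0.036 and 0.0093 without DMSO replicate 1, TVA replicate 1 and TVA replicate 2 (-0.053 to 0.043 over the 6 omissions of single libraries). Under GC correction without DMSO replicate 2, Batf3 turned to 0.015 and Fosl1 to 0.039. The other members kept their sign in every alternative run. Batf was called in 10 of 15 alternatives (limma adjusted p 0.012 to 0.14) and Batf3 in 6 of 15 (0.018 to 0.89). These counts leave out the 1.5-fold minimum, where neither was called. With 3 libraries a group and unknown depth, small differences in Fosb or Fos would not be detectable.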
